A study of Homo sapiens with 6 samples.

Results

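The transcriptional coactivators YAP1 and WWTR1 (TAZ), the TEAD factors TEAD1, TEAD3 and TEAD4, and 5 genes widely used as readouts of these factors (CCN1, CCN2, ANKRD1, AMOTL2 and LATS2) were examined in HCT116, a human colorectal cancer cell line. These 10 genes were chosen by name for their place in the pathway, with earlier results of these data known. They are 10 of 79302 genes in the deposited table, and 9 of them had enough counts to be among the 16755 genes tested. The cells carried an shRNA against GDPD5, a glycerophosphodiester phosphodiesterase (shGDPD5, n = 3 libraries), or a control shRNA (shCtrl, n = 3 libraries). According to the paper the cells of both groups were a radioresistant derivative of HCT116, made by repeated irradiation and collected after a further dose, while the sample labels give only the cell line and the shRNA. Which GDPD5 shRNA was sequenced is not stated, and nothing says whether replicate libraries are separate cultures. The p-values therefore cover only library-to-library spread, which may be technical.

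YAP1 and TAZ carry no DNA-binding domain of their own and act on genes through the TEAD factors, which hold the DNA. When the kinases of the Hippo pathway are active, LATS kinases phosphorylate YAP1 and TAZ, which are then held in the cytoplasm by 14-3-3 proteins or degraded. In the intestinal epithelium the pathway is known for its part in regeneration after injury, and several of its target genes encode inhibitors of YAP1 and TAZ, a negative feedback.

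Library depth was alike in both groups, with total counts between 16715447 and 18510670 per library. GDPD5 itself had 5.44, 5.55 and 5.19 CPM (counts relative to the library's total count scaled by TMM factors, as are all CPM values here) in shGDPD5 cells, against 8.33, 11.6 and 9.75 CPM in shCtrl cells. Its level in shGDPD5 cells was thus 54.5% of that in shCtrl cells, a log2 fold change of -0.88 (SE 0.14, edgeR quasi-likelihood test, adjusted p = 0.000117). Library shCtrl replicate 1 stood apart on the second principal component (8.29% of the variance), at 28.3 against -14.8 and -13.3 for the other shCtrl libraries. The cells expressed epithelial genes (EPCAM, KRT8, KRT18, KRT19 and CDH1), with 0 of 8 listed epithelial markers at 0 in every library, whereas CD3E of the leukocyte list and CDH5 of the endothelial list were at 0. Other epithelial markers were low, with CDX2 at 8.17 to 11.3 CPM and KRT20 at 1.02 to 2.94 CPM over all libraries. VIL1 had 0, 10 and 7 counts in the shGDPD5 libraries and 6, 0 and 0 in the shCtrl libraries, and was not tested. The summed epithelial markers were at 2529 to 2637 CPM in shGDPD5 cells and 3174 to 3613 CPM in shCtrl cells. Of the 6 fibroblast markers COL1A2, DCN and LUM were at 0, and the sum was 20.7 to 24.2 CPM in shGDPD5 cells and 19.04 to 21.6 CPM in shCtrl cells. Most of that sum was COL1A1, with 22.15, 20.3 and 23.5 CPM in shGDPD5 cells and 18.8, 21.3 and 20.8 CPM in shCtrl cells. COL3A1 and PDGFRB had 1 to 6 counts per library. The sums were 0.451 to 0.907 CPM in shGDPD5 cells and 0.807 to 0.959 CPM in shCtrl cells for 5 leukocyte markers, and 0.395 to 0.747 CPM in shGDPD5 cells and 0.692 to 1.30 CPM in shCtrl cells for 4 endothelial markers. The part of the lower epithelial marker level in the results below was not tested, and in such bulk RNA fewer cells of a kind and less RNA per cell cannot be told apart.

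The question was whether the transcripts of this pathway differed between cells with reduced GDPD5 and control cells. Of the 9 tested genes, 3 fell in shGDPD5 cells (WWTR1, AMOTL2 and CCN2), 2 rose (TEAD4 and CCN1) and 4 did not pass the test (YAP1, TEAD1, TEAD3 and LATS2) at an adjusted p under 0.05. Much of the transcriptome differed between the groups, since 59.7% of all tested genes passed the same test, 29.7% higher and 30.1% lower in shGDPD5 cells. The share of the 10 genes that passed, 55.6% of those tested, was therefore near that of genes in general. The groups did not overlap in 6 of the 9 tested genes, against 64.9% of all tested genes. The 9 genes had a median log2 fold change of 0.02, beside 0.01 over all tested genes. By role, 1 of 2 coactivators fell and 0 rose, 1 of 3 TEAD factors rose and 0 fell, and of the 4 tested target genes 2 fell and 1 rose.

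**Figure D1:**
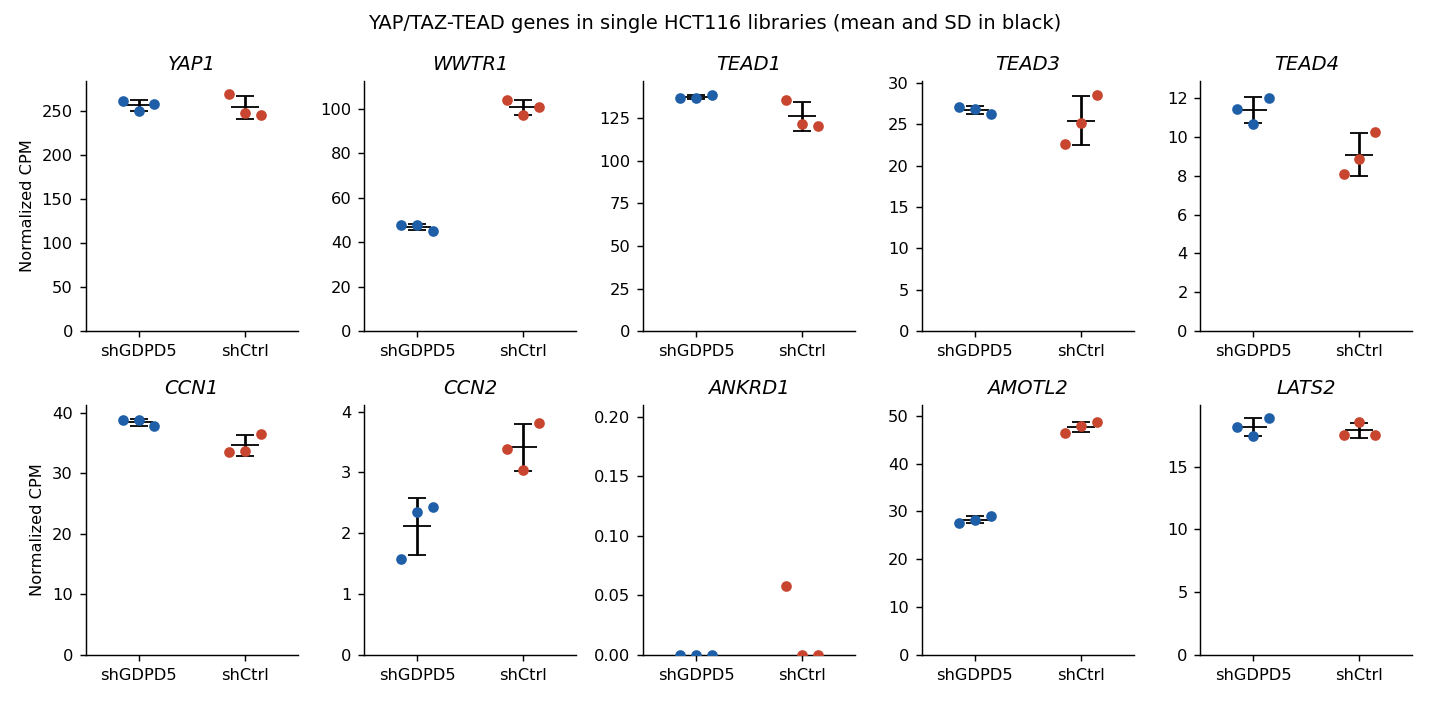
Normalized level (CPM, linear axes starting at 0, one panel a gene) of the 10 genes in each shGDPD5 library (left in each panel) and each shCtrl library (right). Points are libraries and black bars are the mean and SD of 3 libraries, left out for ANKRD1. WWTR1, AMOTL2 and CCN2 lie lower in shGDPD5 cells without overlap, YAP1, TEAD3 and LATS2 overlap, and ANKRD1 is at 0 in 5 of 6 libraries.

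Of the coactivators, WWTR1 fell in shGDPD5 cells and YAP1 did not pass the test. YAP1, the founding coactivator of the pathway, had 260.5, 249 and 258 CPM in shGDPD5 cells and 269, 248 and 245 CPM in shCtrl cells. The libraries of both groups were interleaved. The log2 fold change was 0.01 (SE 0.05, 95% interval -0.09 to 0.12, edgeR adjusted p = 0.841) on 4247 to 4672 counts per library. WWTR1, which encodes TAZ, had 47.6, 47.9 and 45.2 CPM in shGDPD5 cells and 104, 97.4 and 101 CPM in shCtrl cells. Every shGDPD5 library was below every shCtrl library, with little spread in either group. WWTR1 fell to 46.5% of its level in shCtrl cells, a log2 fold change of -1.10 (SE 0.05, 95% interval -1.22 to -0.99, edgeR adjusted p = 4.01e-09), and this call held under every alternative setting tried. WWTR1 lies at chr3:149517235-149736714 (minus strand) and YAP1 at chr11:102110461-102233423 (plus strand) in GENCODE release 29 on GRCh38. TEAD1 is at chr11:12674591-12944483 (plus strand), TEAD3 at chr6:35473597-35497076 (minus strand) and TEAD4 at chr12:2959330-3040673 (plus strand). Whether the counting used strand is not given in the sources used here. WWTR1-AS1, on the opposite strand, held 6, 3 and 3 counts in the shGDPD5 libraries and 5, 1 and 3 in the shCtrl libraries, against 802 to 1788 counts for WWTR1.

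Per kilobase of merged exons, YAP1 was the more abundant coactivator transcript in both groups. On that scale YAP1 stood at 40.7 ± 0.924 CPM per kilobase in shGDPD5 cells and 40.3 ± 2.07 in shCtrl cells, and WWTR1 at 5.58 ± 0.174 in shGDPD5 cells and 12.0 ± 0.403 in shCtrl cells (SD, n = 3 each). The log2 ratio of YAP1 to WWTR1 was 2.87, 2.80 and 2.93 in the shGDPD5 libraries and 1.79, 1.77 and 1.70 in the shCtrl libraries. YAP1 transcripts thus outnumbered WWTR1 transcripts 7.29-fold in shGDPD5 cells and 3.36-fold in shCtrl cells. The difference of 1.12 on the log2 scale was the same with the longest annotated transcript as the length, which sets the ratio at 5.08 in shGDPD5 cells and 2.34 in shCtrl cells. An exact two-sided permutation test gave p = 0.1, the smallest p that 3 libraries against 3 allow, and 0.25 after Benjamini-Hochberg adjustment over the 5 ratios and shares tested in this way.

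**Figure D2:**
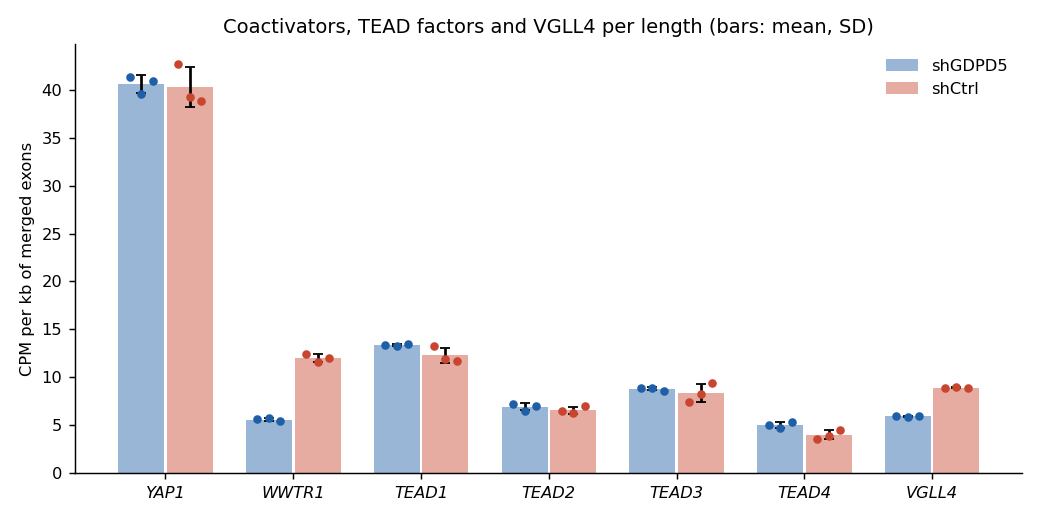
Level per length (CPM per kilobase of merged exons, linear axis from 0) of the coactivators, the TEAD factors and VGLL4, shGDPD5 left of shCtrl for each gene. Points are libraries and bars mark the mean and SD of 3 libraries. YAP1 is near 40 in both groups and WWTR1 is at 5.58 in shGDPD5 cells against 12.0 in shCtrl cells, while the TEAD factors lie between 3.99 and 13.4.

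The TEAD factors, which bind the DNA, differed by much less than WWTR1. TEAD4 had 11.5, 10.7 and 12.0 CPM in shGDPD5 cells and 8.09, 8.86 and 10.3 CPM in shCtrl cells. The groups were close but did not overlap. TEAD4 rose by a log2 fold change of 0.33 (SE 0.11, 95% interval 0.09 to 0.57, edgeR adjusted p = 0.0223) on 139 to 213 counts per library. This call was lost without shGDPD5 replicate 1 (edgeR adjusted p = 0.0553), without shGDPD5 replicate 3 (0.0837), without shCtrl replicate 1 (0.0665) and without shCtrl replicate 2 (0.0723). TEAD1 had 137, 137 and 139 CPM in shGDPD5 cells and 136, 122 and 121 CPM in shCtrl cells. Its groups did not overlap either, but 1 shCtrl library, replicate 1, lay just below the shGDPD5 libraries. The log2 fold change of TEAD1 was 0.13 (SE 0.05, 95% interval 0.01 to 0.24, edgeR adjusted p = 0.0612), and without shCtrl replicate 1 it was 0.18 and passed the test (edgeR adjusted p = 0.000446). With all libraries TEAD1 also passed under upper quartile factors (edgeR adjusted p = 0.0377) and with 10 counts required in every library (0.048). TEAD3 had 27.1, 26.9 and 26.2 CPM in shGDPD5 cells and 22.6, 25.2 and 28.5 CPM in shCtrl cells. The shCtrl libraries of TEAD3 spread on both sides of the shGDPD5 libraries, and the log2 fold change was 0.07 (SE 0.08, 95% interval -0.10 to 0.25, edgeR adjusted p = 0.462), or -0.01 without shCtrl replicate 1.

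The other TEAD paralog, TEAD2, had 21.6, 19.4 and 20.9 CPM in shGDPD5 cells and 19.2, 18.5 and 20.7 CPM in shCtrl cells. Its libraries overlapped, with a log2 fold change of 0.08 (edgeR adjusted p = 0.386). CD37, which overlaps TEAD2 on the other strand, had 105, 112 and 101 counts in the shGDPD5 libraries and 58, 69 and 54 in the shCtrl libraries. TEAD2 had 328 to 370 counts per library, and the part of CD37 reads in them was not tested. The order of the TEAD paralogs per kilobase of exon was the same in both groups, with TEAD1 highest, then TEAD3, TEAD2 and TEAD4. TEAD1 stood at 13.4 ± 0.113 CPM per kilobase in shGDPD5 cells and 12.3 ± 0.828 in shCtrl cells, and TEAD4 at 5.01 ± 0.296 in shGDPD5 cells and 3.99 ± 0.485 in shCtrl cells (SD, n = 3 each). TEAD3 at 8.78 ± 0.153 and TEAD2 at 6.92 ± 0.366 in shGDPD5 cells were further apart than their SDs, and in shCtrl cells, at 8.34 ± 0.970 and 6.54 ± 0.376, they were too. With the longest transcript as the length the means kept this order, but TEAD3 at 8.52 ± 0.990 and TEAD2 at 7.98 ± 0.459 in shCtrl cells were closer together than the SD of TEAD3. TEAD4 made up 14.6%, 14.1% and 15.4% of the summed TEAD level per length in the shGDPD5 libraries and 11.6%, 12.9% and 13.9% in the shCtrl libraries. The TEAD4 share did not overlap between groups and differed by 1.89 percentage points (exact two-sided permutation test, p = 0.1, the smallest possible, adjusted p = 0.25). The 3 other shares overlapped between the groups, with exact p between 0.2 and 0.9. Without shCtrl replicate 1 the TEAD1 share differed by 1.63 points in place of -0.21, and the TEAD3 share by -2.27 in place of -0.99. TEAD paralogs share sequence, and how the counting placed reads that match more than one of them is not given. The deposited counts of TEAD1, TEAD3 and TEAD4 were whole numbers in every library, and those of WWTR1 and TEAD2 were not.

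Of the vestigial-like cofactors, which compete with YAP1 and TAZ for TEAD binding, only VGLL4 was expressed at a level well above the detection floor. VGLL4 had 43.0, 42.6 and 43.4 CPM in shGDPD5 cells and 64.4, 64.9 and 64.4 CPM in shCtrl cells. The groups were far apart relative to their spread, and VGLL4 fell by 0.59 on the log2 scale (SE 0.05, edgeR adjusted p = 7.9e-07). VGLL4 overlaps ATG7 on the genome, which had 444, 450 and 425 counts in the shGDPD5 libraries and 342, 357 and 335 in the shCtrl libraries. Like those of WWTR1 and TEAD2, the deposited counts of VGLL4 were not whole numbers, and how the counting placed its reads is not given. VGLL3 had 13 to 18 counts per library and did not pass the test (log2 fold change -0.13, edgeR adjusted p = 0.72), and VGLL1 and VGLL2 had 0 counts in every library. Over the 8 tested of 10 TEAD factors and cofactors on the list, 1 rose and 2 fell, 37.5% called beside 59.7% of all tested genes, with a median log2 fold change of 0.04.

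The target genes were examined next, starting with the promoters, because TEAD factors recognise the short core GGAATG. RefSeq windows of 250 bases before to 50 bases after a gene's start (GRCh38.p14) were given for 7 of the 10 genes, 9 windows in all. CCN1, TEAD1 and TEAD4 had no entry. The core was searched as GGAATG and as its reverse complement CATTCC, which covers both strands. It was found in 5 of the 9 windows, and 14.03% of all 35116 windows of this length held it. CCN2, ANKRD1, AMOTL2 and LATS2, which held it, were chosen as known readouts of these factors. The shares here and below cannot be read apart from that choice. The windows of CCN2 and of the second AMOTL2 start, genes that fell in shGDPD5 cells, are printed 5′ to 3′ with the core in capitals. The CCN2 window is chr6:131951323-131951622 on the minus strand and the AMOTL2 window chr3:134374398-134374697 on the minus strand.
CCN2: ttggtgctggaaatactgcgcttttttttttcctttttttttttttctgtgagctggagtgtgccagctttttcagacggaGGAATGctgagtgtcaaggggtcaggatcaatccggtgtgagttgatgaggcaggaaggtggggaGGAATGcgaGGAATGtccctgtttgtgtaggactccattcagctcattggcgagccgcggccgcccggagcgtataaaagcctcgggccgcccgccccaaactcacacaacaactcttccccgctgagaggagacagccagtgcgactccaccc
AMOTL2: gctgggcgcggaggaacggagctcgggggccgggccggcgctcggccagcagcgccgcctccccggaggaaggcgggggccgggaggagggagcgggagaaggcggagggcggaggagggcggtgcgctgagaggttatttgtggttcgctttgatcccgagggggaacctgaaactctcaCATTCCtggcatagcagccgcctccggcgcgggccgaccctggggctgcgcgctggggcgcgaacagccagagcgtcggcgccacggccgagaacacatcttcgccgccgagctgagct

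The CCN2 window held 3 copies of the core, starting 169, 104 and 95 bases before the gene's start, and 0.128% of all windows held 3 or more. The ANKRD1 window held 2 copies, starting 220 and 128 bases before the start, and 1.37% of all windows held 2 or more. The windows of YAP1 and LATS2 held 1 copy each, and those of WWTR1 (2 windows), TEAD3 and the first AMOTL2 start held none. The core and its neighbouring bases are shown for the genes that did not pass the test or were at the detection floor, at chr11:102110275-102110300 on the plus strand (YAP1), chr13:21061562-21061587 on the minus strand (LATS2), and chr10:90921292-90921317 and chr10:90921200-90921225 on the minus strand (ANKRD1).
YAP1: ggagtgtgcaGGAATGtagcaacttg
LATS2: tgacgcccgtGGAATGccaacaatgt
ANKRD1, first: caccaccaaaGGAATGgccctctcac
ANKRD1, second: cactgagtctGGAATGaaaattcacc
The core was thus present in windows of genes that fell and of genes that did not pass the test, and a match describes only the letters, not occupancy. The pattern TGANTCA, with any base at N, is wider than the core bound by AP-1 factors, which often act together with TEAD. It was found in 1 of the 9 windows (ANKRD1, as tgattca) and in 7.71% of all windows.

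CCN1 and CCN2 encode secreted matricellular proteins (CYR61 and CTGF) and are the most used readouts of YAP1 and TAZ, and they moved in opposite directions here. In GENCODE release 29 CCN1 is at chr1:85580761-85583962 (plus strand) and CCN2 at chr6:131948176-131951373 (minus strand), where AL133346.1 overlaps it on the other strand. CCN2 had 1.58, 2.35 and 2.42 CPM in shGDPD5 cells and 3.38, 3.05 and 3.81 CPM in shCtrl cells. All shGDPD5 libraries lay below the shCtrl libraries, on 27 to 66 counts each. CCN2 fell by 0.68 on the log2 scale (SE 0.20, 95% interval -1.11 to -0.25, edgeR adjusted p = 0.0101). CCN1 had 38.7, 38.8 and 37.7 CPM in shGDPD5 cells and 33.5, 33.7 and 36.5 CPM in shCtrl cells. The groups did not overlap, with shCtrl replicate 3 nearest to the shGDPD5 libraries. CCN1 rose by 0.15 on the log2 scale (SE 0.06, 95% interval 0.02 to 0.28, edgeR adjusted p = 0.0428), a call that was lost in 11 of 17 alternative settings. Leaving out a library lost it in all cases but shCtrl replicate 3: edgeR adjusted p = 0.123, 0.128 and 0.0874 without shGDPD5 replicates 1, 2 and 3, and 0.0582 and 0.147 without shCtrl replicates 1 and 2. Per kilobase CCN1 was the more abundant, at 15.7 CPM per kilobase in shGDPD5 cells and 14.1 in shCtrl cells, beside 0.905 for CCN2 in shGDPD5 cells and 1.46 in shCtrl cells. Of the other CCN genes, CCN3 (NOV) had 3.86, 2.94 and 3.16 CPM in shGDPD5 cells and 2.15, 2.60 and 1.96 CPM in shCtrl cells, higher by 0.56 on the log2 scale (SE 0.19, edgeR adjusted p = 0.0204) and lost in 8 of 17 settings, among them without shCtrl replicate 1 (edgeR adjusted p = 0.0535). CCN4, CCN5 and CCN6 had 0 to 4 counts per library and were not tested.

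The remaining targets lie on minus strands, ANKRD1 at chr10:90912096-90921276, AMOTL2 at chr3:134355874-134375479 and LATS2 at chr13:20973032-21061547. ANKRD1, which encodes a cardiac ankyrin repeat protein and is a sensitive target in many cell types, was at the floor. It had 0 counts in all shGDPD5 libraries, and 1, 0 and 0 counts in the shCtrl libraries. A count of 0 allows up to 3 counts, 0.16 to 0.175 CPM per library, so no difference was detectable at this depth. AMOTL2, an angiomotin that binds YAP1 and TAZ and holds them out of the nucleus, is both a target and an inhibitor. It had 27.6, 28.3 and 28.99 CPM in shGDPD5 cells and 46.4, 47.9 and 48.6 CPM in shCtrl cells. The gap between the groups was many times their spread, and AMOTL2 fell by 0.75 on the log2 scale (SE 0.06, 95% interval -0.87 to -0.63, edgeR adjusted p = 2.37e-07). LATS2, the feedback kinase that phosphorylates YAP1 and TAZ, had 18.2, 17.5 and 18.9 CPM in shGDPD5 cells and 17.5, 18.6 and 17.5 CPM in shCtrl cells. The LATS2 libraries were interleaved and the log2 fold change was 0.02 (SE 0.08, 95% interval -0.14 to 0.19, edgeR adjusted p = 0.809).

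**Figure D3:**
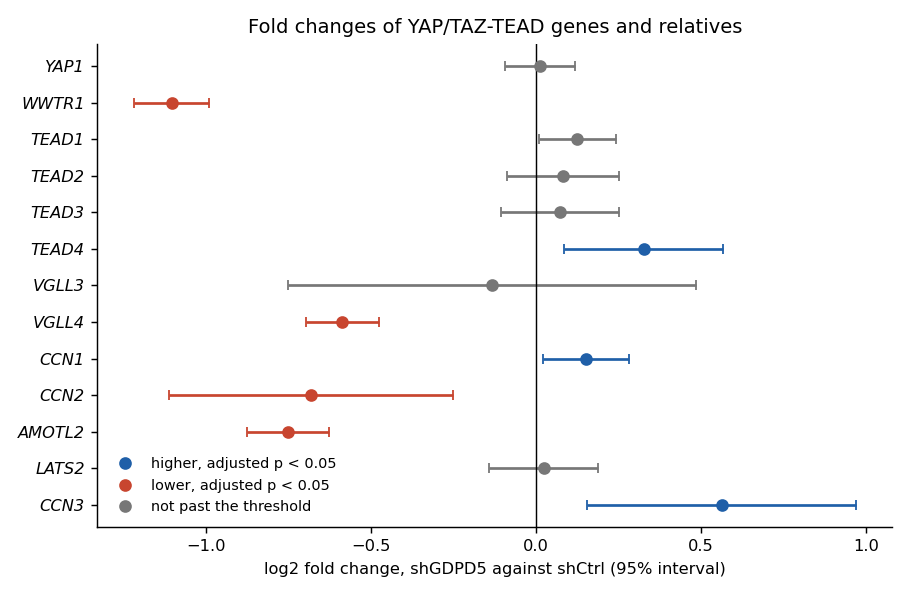
Log2 fold change of shGDPD5 against shCtrl for the 9 tested genes, TEAD2, VGLL3, VGLL4 and CCN3, with 95% intervals from the edgeR fit. Points to the left of 0 are lower in shGDPD5 cells. WWTR1 (-1.10), AMOTL2 (-0.75), CCN2 (-0.68) and VGLL4 (-0.59) are lower, and the interval of YAP1 spans -0.09 to 0.12.

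Set in a wider list of YAP1 and TAZ target genes, AMOTL2 and CCN2 were among a majority of genes that fell. The list was written from general knowledge of the pathway, but with earlier results of these data known. It includes the 5 target genes above, and its shares are therefore not independent of these data. Of its 18 tested genes, 11 fell and 2 rose in shGDPD5 cells, 61.1% lower beside 30.1% of all tested genes, and 4 of the 22 listed genes were not tested (ANKRD1, FOXF2, TGFB2 and RBMS3). The median log2 fold change was -0.40, beside 0.01 over all tested genes. Without the 5 target genes 9 of 14 fell and 1 rose, with the same median. Without shCtrl replicate 1 the count was 11 lower and 1 higher. IGFBP3, 1 of the 11 and also counted among the 9 of 14, passed the low-count filter only through the shCtrl libraries. With at least 10 counts required of each library 9 of the list were lower. IGFBP3 was then not tested and CRIM1 lost its call (edgeR adjusted p = 0.0506). Of 7 tested epithelial markers 6 were lower in shGDPD5 cells, beside 30.1% of all tested genes, CDH1 among them (log2 fold change -0.83). The other, KRT20, rose, with 2.63, 2.94 and 2.65 CPM in shGDPD5 cells and 1.28, 1.02 and 1.21 CPM in shCtrl cells (log2 fold change 1.23, edgeR adjusted p = 0.000203). The part of these markers in the result was not tested.

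The 4 genes of this list with the smallest p were NT5E, GADD45A, AXL and F3. NT5E, which encodes the surface enzyme CD73 that makes adenosine, had 58.4, 60.4 and 58.4 CPM in shGDPD5 cells and 404, 363 and 365 CPM in shCtrl cells (log2 fold change -2.67, edgeR adjusted p = 6.23e-12). GADD45A, a stress-response gene that is also a direct target of p53, had 58.9, 56.8 and 62.9 CPM in shGDPD5 cells and 145, 149 and 147 CPM in shCtrl cells (log2 fold change -1.30, edgeR adjusted p = 8.37e-10). AXL, a receptor tyrosine kinase, had 58.7, 56.1 and 60.6 CPM in shGDPD5 cells and 112, 112 and 113 CPM in shCtrl cells (log2 fold change -0.94, edgeR adjusted p = 9.38e-09). F3, the tissue factor that starts blood coagulation, had 31.9, 31.8 and 30.0 CPM in shGDPD5 cells and 66.6, 62.5 and 62.5 CPM in shCtrl cells (log2 fold change -1.03, edgeR adjusted p = 1.55e-08). In all 4 the shGDPD5 libraries lay well below the shCtrl libraries. IGFBP3, an insulin-like growth factor binding protein, had 3, 2 and 2 counts in the shGDPD5 libraries and 38, 55 and 52 counts in the shCtrl libraries. MYOF, ARHGEF17, FJX1 and CRIM1 fell by 0.15 to 0.41 on the log2 scale, of which CRIM1 (edgeR adjusted p = 0.0482) lost its call in 15 of 17 settings and FJX1 in 9. DOCK5 rose, with 122, 127 and 125 CPM in shGDPD5 cells and 114, 101 and 103 CPM in shCtrl cells. The members of the list beyond the first 4 were named after their values were seen. PTPN14, ASAP1, CCDC80 and NUAK2 did not pass the test, with log2 fold changes between -0.49 and 0.19.

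The kinases and upstream regulators of the Hippo pathway went both ways. Of 28 tested genes on that list, AMOTL2 and LATS2 included, 10 fell, 8 rose and 10 did not pass, with a median log2 fold change of 0.01 and a range of -0.77 to 0.82. These shares, 35.7% lower and 28.6% higher, were near the 30.1% and 29.7% of all tested genes. The paired kinases of the pathway's start moved apart: STK3 (MST2) had 47.6, 49.3 and 47.8 CPM in shGDPD5 cells and 75.6, 71.4 and 69.0 CPM in shCtrl cells (log2 fold change -0.58, edgeR adjusted p = 1.87e-06), while STK4 (MST1) had 101, 104 and 95.03 CPM in shGDPD5 cells and 85.5, 81.9 and 76.1 CPM in shCtrl cells (log2 fold change 0.30). STK4 was named after its values were seen. WWC2, a scaffold that promotes LATS activity, had 41.0, 43.1 and 40.4 CPM in shGDPD5 cells and 75.2, 69.1 and 67.6 CPM in shCtrl cells (log2 fold change -0.77, edgeR adjusted p = 2.89e-07). TAOK2, a kinase that acts on the MST kinases, had 87.5, 79.8 and 89.2 CPM in shGDPD5 cells and 43.6, 50.7 and 50.6 CPM in shCtrl cells (log2 fold change 0.82, edgeR adjusted p = 5.85e-07). For none of these 4 did the groups overlap, but STK3, WWC2 and TAOK2 were named for their small p. The groups did not overlap in 19 of the 28 tested genes of the list, beside 64.9% of all tested genes. LATS1, the partner of LATS2 and likewise named afterwards, had a log2 fold change of 0.08 and did not pass.

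**Figure D4:**
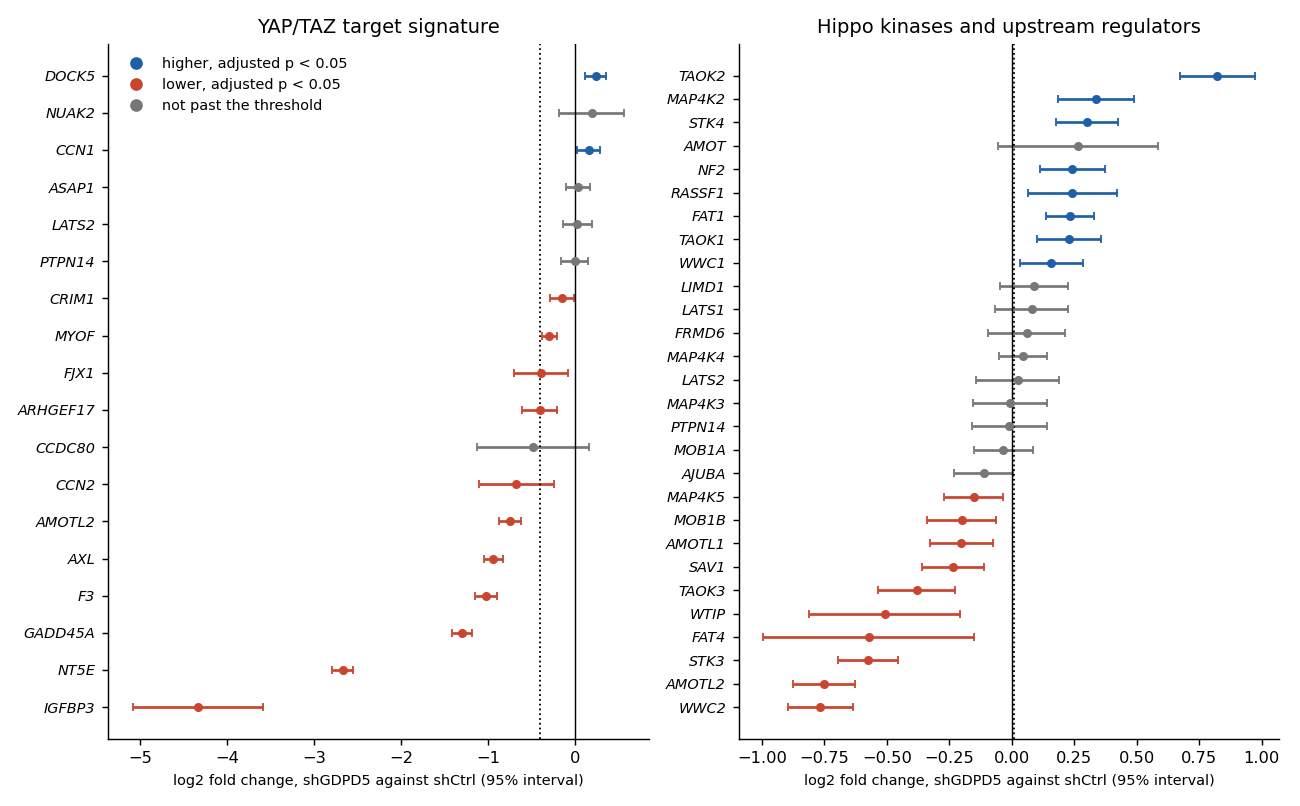
Log2 fold change of shGDPD5 against shCtrl for every tested gene of 2 lists (left, YAP1 and TAZ target genes; right, Hippo kinases and upstream regulators), with 95% intervals and the list median as a dotted line; blue is higher, red lower and grey not past an adjusted p under 0.05. The target gene list has a median of -0.40 with 11 of 18 genes lower, and the Hippo list one of 0.01 with 10 lower and 8 higher.

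The 14-3-3 proteins, which hold phosphorylated YAP1 and TAZ in the cytoplasm, were higher in 5 of 7 genes and lower in none, 71.4% higher beside 29.7% of all tested genes, with a median log2 fold change of 0.26. YWHAG had 511, 508 and 509 CPM in shGDPD5 cells and 381, 377 and 378 CPM in shCtrl cells (log2 fold change 0.43, edgeR adjusted p = 1.25e-06). YWHAH (0.30), YWHAE (0.26), YWHAQ (0.22) and SFN (0.31) rose by less on the log2 scale. YWHAB (-0.09) and YWHAZ (-0.01) did not pass, although without shCtrl replicate 1 the count of lower genes was 1. These proteins have many partners besides YAP1 and TAZ.

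CCN1, CCN2 and ANKRD1 also answer to serum response factor and its MRTF coactivators, so that set of genes was read beside them. Of 19 tested genes 8 fell, 6 rose and 5 did not pass, 42.1% lower and 31.6% higher beside 30.1% and 29.7% of all tested genes, with a median log2 fold change of -0.05. FHL1, a LIM-domain protein, had 11.6, 13.1 and 12.2 CPM in shGDPD5 cells and 42.9, 42.3 and 41.6 CPM in shCtrl cells (log2 fold change -1.78, edgeR adjusted p = 6.35e-10). TAGLN, a smooth muscle actin-binding protein, moved the other way, with 9.0, 10.3 and 8.63 CPM in shGDPD5 cells and 2.62, 3.72 and 3.86 CPM in shCtrl cells (log2 fold change 1.45, edgeR adjusted p = 4.47e-06). FHL2 (-0.81, edgeR adjusted p = 9.42e-08) and ACTG1, a cytoplasmic actin (-0.47, edgeR adjusted p = 1.60e-06), fell. SRF itself had a log2 fold change of 0.02 and did not pass.

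The genes whose pattern over the 6 libraries was nearest to YAP1 and to CCN2 were looked up among 11358 genes with a mean of at least 5 CPM, by the Euclidean distance between log2 CPM values centred on their mean. Nearest to CCN2 were ACTR3B, an actin-related protein (distance 0.254), CCNJL, a cyclin-like protein (0.274), and ZFAND2A, a zinc finger protein induced by proteotoxic stress (0.286), with log2 fold changes of -0.58, -0.56 and -0.67. Nearest to YAP1 were NPEPPS, an aminopeptidase (0.0264), CCZ1, a subunit of a Rab exchange factor with a near-identical copy in the genome (0.0293), and VPS41, a subunit of the lysosomal tethering complex (0.0371), with log2 fold changes of 0.01 or less. Like YAP1, these 3 were highest in shCtrl replicate 1 and interleaved between the groups. Such likeness to YAP1 or CCN2, fold changes included, follows from the choice by distance over the same 6 libraries.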

How the data were processed

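RNA was measured in 6 HCT116 libraries, 3 shGDPD5 and 3 shCtrl, grouped by the sample labels. The deposited file holds the authors' estimated counts for each gene (79302 rows), made from total RNA with an mRNA library kit. Which aligner, counting tool, strand setting and build made them is not given in the sources used here. In all, 370 rows had no Ensembl ID, held 0.226% of the counts and stayed in the fit without a gene name.

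Estimated counts were rounded to whole numbers, a change of at most 0.5. The default low-count filter of edgeR was applied (minimum count 10), and 16755 genes, 95.5% of which had a symbol in the name table, were tested with TMM factors and the quasi-likelihood test of edgeR 4.0.16 (R 4.3.3), without covariates, with Benjamini-Hochberg adjustment over all tested genes and a threshold of 0.05. The common BCV was 0.0555. With 16715447 to 18510670 counts in a library, genes of few counts are measured imprecisely. Floors cover counting error only, while the edgeR intervals cover counting error and library-to-library spread. Patterns and principal components used log2 CPM with a prior count of 2. Ratios per length used merged exon lengths from GENCODE release 29 and exact permutation tests over libraries, and promoters came from RefSeq (GRCh38.p14).

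Genes named were the 10 genes, GDPD5, all TEAD, VGLL and CCN genes, up to 4 genes of each other list with the smallest adjusted p under 0.05, and the 3 genes of at least 5 CPM, outside every list, most like YAP1 and CCN2 each. Some other genes of the lists, SFN, YWHAB, YWHAZ and SRF among them, were named outside this rule, with their values seen. The genes and lists were chosen with earlier results of these data known. As alternatives, upper quartile and RLE factors, limma-voom (limma 3.58.1), DESeq2 1.42.0, a per-gene test on log2(CPM + 1), no filter, a filter of 10 counts in every library, leaving out each library, a replicate block, an adjusted p under 0.01 and a log2 fold change of 1 or more in size were run.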

Additional observations from a re-analysis of the deposited data

How the results depend on the processing

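WWTR1, AMOTL2, NT5E, AXL, F3 and GADD45A kept their direction under all 17 alternatives, and none of the genes given alternatives of their own that passed the test reversed. STK4, SFN and KRT20 were not followed singly. The number of the 10 genes that rose, 2, was 0 with DESeq2, 1 with the per-gene test, 1 without a filter, 3 with upper quartile factors and 3 when every library had to hold 10 counts, and 0 at an adjusted p under 0.01. Requiring a log2 fold change of 1 or more in size, with an unadjusted or an adjusted p under 0.05, left 0 higher and 1 lower (WWTR1), against 2 and 3. At an adjusted p under 0.01 2 were lower, as with the per-gene test, and CCN2 lost its call in both. For the TEAD factors and cofactors the number higher, 1, was 2 with the filter of 10 counts per library or upper quartile factors, and 0 with DESeq2, the per-gene test and an adjusted p under 0.01. For the target list the number higher, 2, was 1 with DESeq2, without a filter and at an adjusted p under 0.01. The 14-3-3 list had 1 lower with the per-gene test.

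Both fold rules left 0 higher and 1 lower of the TEAD list, 0 and 0 of the Hippo list, 0 and 4 of the target list, 1 and 1 of the serum response factor list and 0 higher of the 14-3-3 list, and 2007 (unadjusted p) or 1994 (adjusted p) of all genes against 10006. GDPD5, at -0.88, failed both. These rules demand more by construction. For the other settings the cause was not tested.

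Leaving out 1 library at a time gave 0 to 2 of the 10 genes higher and 3 lower, 0 to 1 TEAD genes higher, 1 to 2 target genes higher and 9 to 11 lower, 6 to 9 Hippo genes higher and 7 to 11 lower, and 0 to 1 14-3-3 genes lower. The TEAD1 share differed by -1.915 to 1.628 percentage points, with 0.104 without shGDPD5 replicate 1, against -0.21. TEAD4 shares differed by 1.30 to 2.42 points, TEAD3 by -2.27 to -0.00362 and TEAD2 by -1.03 to -0.318.

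Log2 fold changes near 0 that did not pass changed sign. YAP1 was at -0.003334 without a filter, -0.01003 without shCtrl replicate 2, -0.01768 without shCtrl replicate 3 and -0.001892 without shGDPD5 replicate 1. TEAD3 was at -0.008063 and PTPN14 at 0.06682 without shCtrl replicate 1, LATS2 at -0.007787 without shGDPD5 replicate 3, PTPN14 at 0.006612 with upper quartile factors, and ASAP1 at -0.0206 and -0.00328 without shCtrl replicates 2 and 3. NPEPPS was at -0.008778, CCZ1 at -0.01405 and VPS41 at -0.01058 without a filter, and CCZ1 was at -0.002647 with RLE factors and -0.002642 with DESeq2. Without shCtrl replicate 2, shCtrl replicate 3 and shGDPD5 replicate 1 in turn NPEPPS was at -0.0208, -0.01741 and -0.01057, CCZ1 at -0.01671, -0.027 and -0.02091, and VPS41 at -0.02537, -0.02342 and -0.006784.

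Over all left-out libraries YAP1 ranged between -0.01768 and 0.05106, TEAD3 between -0.008063 and 0.1577, LATS2 between -0.007787 and 0.04671, ASAP1 between -0.0206 and 0.08638, PTPN14 between -0.0565 and 0.06682, NPEPPS between -0.0208 and 0.04523, CCZ1 between -0.027 and 0.0344, and VPS41 between -0.02537 and 0.05059.

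No pairing of the libraries by the replicate numbers that the groups share was seen. The correlation of deviations between same-numbered libraries was -0.07, -0.05 and -0.04, and 0 of 6 libraries correlated best with its own number. With a replicate block, CCN1 lost its call (edgeR adjusted p = 0.0746). This left 1 of the 10 genes higher in place of 2 and 1 target gene in place of 2. The block left 3 of the 10 genes lower and 9645 genes called in all.

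Depth limits ANKRD1, VGLL3, IGFBP3, CCDC80, CCN2 and CCN3, on 0 to 66 counts per library, and the genes not tested.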
